A study of Homo sapiens with 4 samples.

Results

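The E2F and DP factors are the transcription factors that time the expression of DNA replication and cell division genes. The set described here holds 10 genes, E2F1 to E2F8, TFDP1 and TFDP2, taken by symbol from a table of 38972 genes. All 10 were listed, and all 10 passed the filter on low values that left 15651 genes for testing. RNA sequencing was done on HEK293T cells, an established human embryonic kidney line, with 2 libraries from cells overexpressing RNase H1, which cuts the RNA strand of RNA-DNA hybrids, and 2 from cells overexpressing the Flag epitope tag as control. No other genotype, treatment or time is given in the labels, and nothing there says that replicates came from separate cultures, so the p-values rest on variation between libraries that could be purely technical. HEK293T cells carry the adenovirus E1A and SV40 large T proteins, which bind the pocket proteins that restrain E2F factors, and neither viral transcript was analysed here.

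E2F1 to E2F6 bind DNA as dimers with a DP protein (TFDP1 or TFDP2). E2F1, E2F2 and E2F3 are classed as activators, and the retinoblastoma protein RB1 holds them inactive until cyclin-dependent kinases phosphorylate it. E2F4 and E2F5 are classed as repressors that work with the pocket proteins RBL1 (p107) and RBL2 (p130), and E2F6 represses through Polycomb proteins without any pocket protein. E2F7 and E2F8, the atypical members, bind DNA without a DP partner and repress E2F target genes in S phase.

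Values are TPM, the share of each gene's transcripts in its library after scaling for transcript length. Read depth cannot be recovered from TPM and is unknown, so no counting interval is given. Columns summed to between 998901 and 998955 TPM. More genes were listed above 0 in the libraries labelled RNase H1 (24585 and 24568) than in those labelled Flag (23556 and 23621), and the part of this in the results was not tested. Log2 values of the tested genes correlated at 0.98 or more between any 2 libraries. The level of RNASEH1, the gene for RNase H1, was 29.93 and 29.67 TPM in the libraries labelled RNase H1 and 32.09 and 32.8 TPM in those labelled Flag. The RNase H1 label was thus not matched by a higher RNASEH1 value (log2 fold change -0.12 ± 0.06, SE, limma adjusted p = 0.260), and every direction below follows the labels. Among markers of embryonic kidney LHX1 was listed between 5.7 and 6.6 TPM and PAX8 at no more than 0.47 TPM, and the blood markers PTPRC and HBB were at no more than 0.02 TPM in any library. The 5 endothelial markers summed to at most 1.43 TPM.

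The promoters of the activators are shown first because E2F factors are known to bind the promoters of several E2F genes. RefSeq (GRCh38.p14) gave 11 promoter windows for 8 of the 10 members, and E2F5 and E2F8 had none. Each sequence covers the 250 bases before an annotated gene start, on the gene's strand. Capitals mark stretches that match, on either strand, the 7-letter motif TTTCCCG or one of its relatives, namely TTTCGCG and likewise TTTGCCG and likewise TTTGGCG. These letters of the E2F consensus were picked after the sequences had been seen. The windows are E2F1 at chr20:33686386-33686635 (minus strand), E2F2 at chr1:23531234-23531483 (minus), the first E2F3 window at chr6:20401629-20401878 (plus), E2F6 at chr2:11466162-11466411 (minus) and, for contrast, E2F4 at chr16:67191905-67192154 (plus).
E2F1: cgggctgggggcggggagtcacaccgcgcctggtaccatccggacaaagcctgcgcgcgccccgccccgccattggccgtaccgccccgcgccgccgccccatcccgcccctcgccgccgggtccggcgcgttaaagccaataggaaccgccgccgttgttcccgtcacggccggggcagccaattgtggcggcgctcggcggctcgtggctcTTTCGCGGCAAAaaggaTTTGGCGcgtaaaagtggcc
E2F2: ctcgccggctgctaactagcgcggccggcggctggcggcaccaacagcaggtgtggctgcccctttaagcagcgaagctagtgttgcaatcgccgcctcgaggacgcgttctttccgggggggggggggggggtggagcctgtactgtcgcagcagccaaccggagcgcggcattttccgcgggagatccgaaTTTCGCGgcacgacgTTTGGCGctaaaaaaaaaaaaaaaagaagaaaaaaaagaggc
E2F3: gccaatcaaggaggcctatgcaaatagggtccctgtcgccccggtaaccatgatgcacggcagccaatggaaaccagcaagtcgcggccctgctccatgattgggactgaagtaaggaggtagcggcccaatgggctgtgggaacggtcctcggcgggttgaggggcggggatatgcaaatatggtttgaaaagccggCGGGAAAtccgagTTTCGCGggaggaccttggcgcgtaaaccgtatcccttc
E2F6: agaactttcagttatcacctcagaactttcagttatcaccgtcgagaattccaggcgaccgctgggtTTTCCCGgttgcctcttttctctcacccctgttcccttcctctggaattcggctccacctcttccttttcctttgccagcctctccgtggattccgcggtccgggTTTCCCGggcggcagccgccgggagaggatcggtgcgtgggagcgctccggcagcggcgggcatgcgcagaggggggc
E2F4: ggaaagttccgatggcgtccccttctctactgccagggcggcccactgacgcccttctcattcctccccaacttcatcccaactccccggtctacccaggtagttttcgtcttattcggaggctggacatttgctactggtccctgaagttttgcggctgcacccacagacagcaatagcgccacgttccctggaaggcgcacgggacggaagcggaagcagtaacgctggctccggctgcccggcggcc

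The E2F1, E2F2 and first E2F3 windows each held 2 such stretches close to the gene start. In E2F1 a stretch in which TTTCGCG overlaps TTTGCCG on the other strand began 37 bases before the start and TTTGGCG began 20 bases before it. In E2F2 the stretches began 57 and 42 bases before the start, and in E2F3 52 and 39 bases before it. The E2F6 window held TTTCCCG beginning 183 and 78 bases before the start. TFDP1 had a single stretch, and the windows of E2F4, E2F7 and TFDP2 and the second E2F3 window had none. Of all 35116 RefSeq windows of the same length 7.33% held at least 1 stretch and 0.456% held 2 or more. Because the letters were picked after the members' sequences had been seen, these shares are no test of the members. Windows of the members had a median GC content of 61.6%, against 58.0% over all windows. A match describes letters in a window and is not a measured binding site.

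Of the 10 members, 1 rose and 1 fell in the libraries labelled RNase H1, and 8 were not called. E2F2 was the member that rose and E2F4 the member that fell. The test was limma on log2(TPM + 1) with Benjamini-Hochberg adjustment over all tested genes, and it called 11.8% of them, 6.3% higher and 5.54% lower. The libraries of the groups did not overlap for 8 of the 10 members, 6 of them higher and 2 lower in the libraries labelled RNase H1. Over all tested genes the groups did not overlap for 60.7%, 31.3% higher and 29.4% lower. Across the 10 members the median log2 fold change was 0.16, against 0.0035 over all tested genes. The members' log2 fold changes lay between -0.26 and 0.46. With the sign ignored, the median size of a change was 0.17 over all tested genes and 0.42 over called genes.

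**Figure D1:**
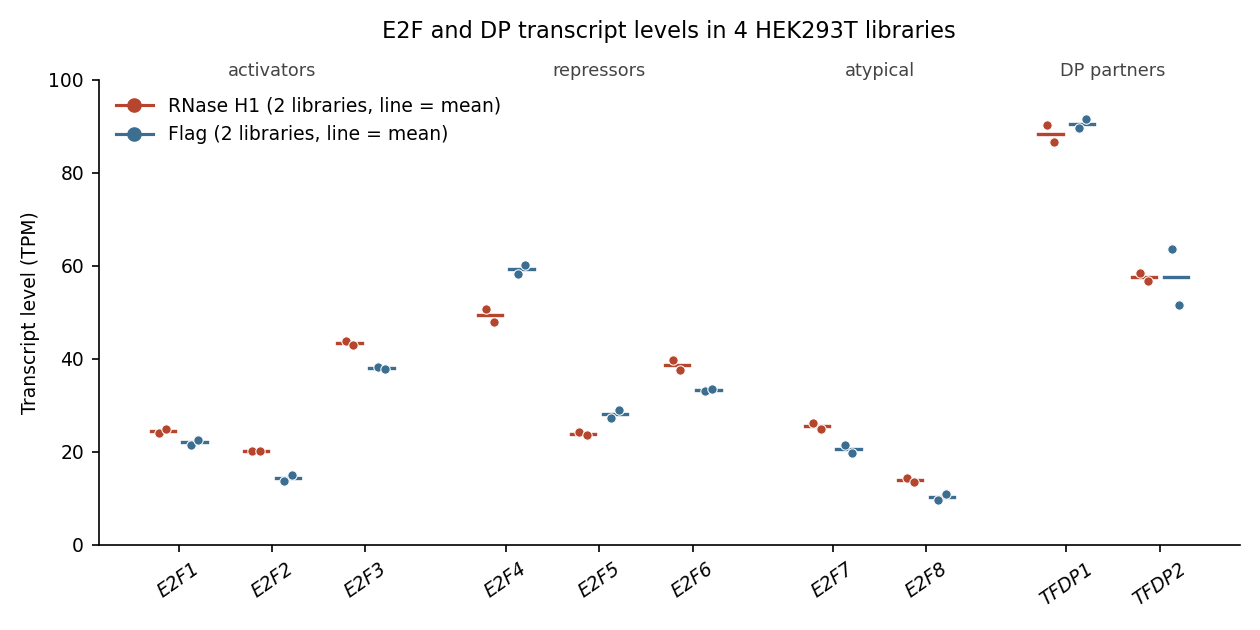
Transcript level (TPM, linear axis from 0) of each E2F and DP factor, with a point per library and a line at the group mean, RNase H1 left of Flag. The groups are apart for E2F1 to E2F8, with E2F4 and E2F5 lower in the libraries labelled RNase H1, and they overlap for TFDP1 and TFDP2.

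All 3 activators were listed at higher levels in both libraries labelled RNase H1, and the increase of E2F2 passed the test. E2F2 (minus strand of chromosome 1, 23506430 to 23531220, positions here and below from GENCODE release 29 on GRCh38) had 20.15 and 20.2 TPM in the libraries labelled RNase H1, against 13.82 and 15.06 TPM in those labelled Flag. The lower of the RNase H1 values lay well above the higher of the Flag values. E2F2 averaged 20.2 ± 0.0354 TPM in the libraries labelled RNase H1 and 14.4 ± 0.877 TPM in those labelled Flag (SD, n = 2 each), a ratio of 1.40. Its log2 fold change was 0.46 ± 0.08 (SE, 95% interval 0.25 to 0.66, limma adjusted p = 0.0279), the largest increase and the smallest p among the 10 members. When any 1 of the 4 libraries was left out the value lay between 0.40 and 0.51, but the adjusted p was between 0.121 and 0.156 and E2F2 was not called. In bulk RNA a shift in the share of cells in a phase of the cycle and a change of transcripts per cell cannot be told apart.

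E2F3 and E2F1 had smaller differences that did not pass. E2F3 (chromosome 6, 20401906 to 20493715, plus strand), the most abundant activator, had 43.76 and 42.96 TPM in the libraries labelled RNase H1 and 38.21 and 37.92 TPM in those labelled Flag (log2 fold change 0.18 ± 0.06, SE, limma adjusted p = 0.0939). The table gives 1 value for the gene, so the transcripts from its separate promoters cannot be told apart. E2F1 (chromosome 20, 33675683 to 33686404, minus strand), which can also drive apoptosis genes, had 23.96 and 24.99 TPM in the libraries labelled RNase H1, against 21.57 and 22.61 TPM in those labelled Flag. The groups did not overlap but lay close together, with a log2 fold change of 0.14 ± 0.07 (SE, limma adjusted p = 0.246). The longest E2F1 transcript has a GC content of 62.5%, the highest of the 10 members. After correction for GC content its log2 fold change was 0.24 (adjusted p = 0.0776), over 1.5 times the uncorrected value.

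The repressor class did not move as a unit. E2F4 (chromosome 16, 67192169 to 67198918, plus strand), the main E2F of resting cells, fell to 50.81 and 47.95 TPM in the libraries labelled RNase H1, against 58.29 and 60.26 TPM in those labelled Flag. The means were 49.4 ± 2.02 TPM in the libraries labelled RNase H1 and 59.3 ± 1.39 TPM in those labelled Flag (SD, n = 2 each), a ratio of 0.833. The log2 fold change was -0.26 ± 0.06 (SE, 95% interval -0.41 to -0.11, limma adjusted p = 0.0456). This call was lost after GC correction (log2 fold change -0.19, adjusted p = 0.0919), after GC and length correction (-0.21, adjusted p = 0.0781) and when any 1 of the 4 libraries was left out (adjusted p 0.142 to 0.210). The longest E2F4 transcript has a GC content of 59.3%.

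E2F5, the other repressor that works through RBL1 and RBL2, was also lower in both libraries labelled RNase H1, and E2F6 was higher in both. E2F5 (chromosome 8, 85177225 to 85217158, plus strand) had 24.21 and 23.53 TPM in the libraries labelled RNase H1 and 27.22 and 29.08 TPM in those labelled Flag (log2 fold change -0.23 ± 0.07, SE, limma adjusted p = 0.0924). Its value is uncertain, because 16.3% of its exon bases lie opposite exons of RBIS on the other strand and whether counting used strand is not given in the sources used here. RBIS is abundant, with 192.65 and 208.72 TPM in the libraries labelled RNase H1 and 210.68 and 221.81 TPM in those labelled Flag (log2 fold change -0.11 ± 0.06, SE, adjusted p = 0.242), and its part in the E2F5 value was not tested. E2F6 (chromosome 2, 11444375 to 11466177, minus strand) had 39.82 and 37.51 TPM in the libraries labelled RNase H1 and 33.17 and 33.6 TPM in those labelled Flag. Its log2 fold change of 0.21 ± 0.07 (SE, limma adjusted p = 0.0919) did not pass, although the gap between its groups was wider than that between replicates.

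Both atypical members had higher levels in the libraries labelled RNase H1 and came close to the threshold without passing it. E2F8 (chromosome 11, 19224063 to 19241620, minus strand) had 14.31 and 13.46 TPM in the libraries labelled RNase H1 and 9.58 and 10.92 TPM in those labelled Flag. Its ratio of 1.35 was the second highest of the 10, with a log2 fold change of 0.41 ± 0.10 (SE, limma adjusted p = 0.0549). E2F7 (chromosome 12, 77021247 to 77065580, minus strand) had 26.12 and 24.91 TPM in the libraries labelled RNase H1 and 21.57 and 19.78 TPM in those labelled Flag (log2 fold change 0.29 ± 0.08, SE, limma adjusted p = 0.0663). With testing limited to genes averaging 5 TPM or more both passed, E2F8 with a limma adjusted p of 0.0362 and E2F7 with 0.0437. That setting called a larger share of all genes, 2397 of 11245, against 1853 of 15651 in the main fit. E2F8 also passed after quantile normalization (adjusted p = 0.0460).

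The DP partners did not differ between the groups beyond the spread of their libraries. TFDP1 (chromosome 13, 113584721 to 113641470, plus strand), which encodes DP1, had 90.25 and 86.62 TPM in the libraries labelled RNase H1 and 89.58 and 91.54 TPM in those labelled Flag (log2 fold change -0.03, 95% interval -0.16 to 0.09, limma adjusted p = 0.688). TFDP2 (chromosome 3, 141944428 to 142149544, minus strand), which encodes DP2, had 58.45 and 56.68 TPM in the libraries labelled RNase H1 and an uneven 63.56 and 51.53 TPM in those labelled Flag. Both RNase H1 values lay between the 2 Flag values, and the log2 fold change was 0.01 (95% interval -0.24 to 0.25, adjusted p = 0.965). TFDP3, a further DP gene, was listed at 0 in all 4 libraries.

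**Figure D2:**
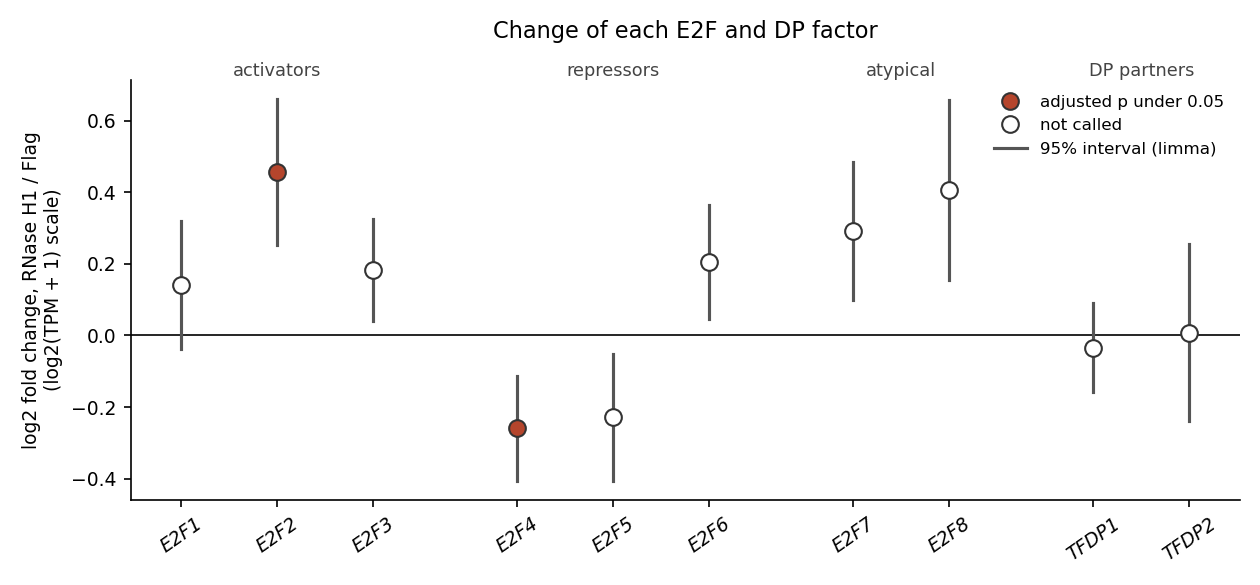
Log2 fold change of each E2F and DP factor, RNase H1 over Flag, on the log2(TPM + 1) scale, with 95% intervals from limma. Filled points passed an adjusted p of 0.05, E2F2 upward and E2F4 downward, and only the intervals of E2F1, TFDP1 and TFDP2 include 0.

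By level, TFDP1 was the most abundant member and E2F8 the least abundant in both groups. In the libraries labelled RNase H1 the order from high to low was TFDP1, TFDP2, E2F4, E2F3, E2F6, E2F7, E2F1, E2F5, E2F2 and E2F8. Neighbours whose libraries overlapped there were E2F7 with E2F1 and E2F1 with E2F5. In the libraries labelled Flag the order was TFDP1, E2F4, TFDP2, E2F3, E2F6, E2F5, E2F1, E2F7, E2F2 and E2F8, with overlaps between E2F4 and TFDP2 and between E2F1 and E2F7. E2F4 was thus the most abundant E2F gene in either group, and by its mean E2F5 stood below E2F1 and E2F7 in the libraries labelled RNase H1 and above both in those labelled Flag.

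Summed by class, activators and atypical members were higher in the libraries labelled RNase H1 and repressors lower. The 3 activators summed to 87.87 and 88.15 TPM in the libraries labelled RNase H1 and to 73.60 and 75.59 TPM in those labelled Flag, a ratio of the means of 1.18. The 3 repressors summed to 114.84 and 108.99 TPM in the libraries labelled RNase H1 and to 118.68 and 122.94 TPM in those labelled Flag, a ratio of 0.926. That sum combines the lower E2F4 and E2F5 with the higher E2F6. The atypical pair summed to 40.43 and 38.37 TPM in the libraries labelled RNase H1, against 31.15 and 30.70 TPM in those labelled Flag, a ratio of 1.27. None of these sums overlapped between groups. The DP sums did overlap, at 148.7 and 143.3 TPM in the libraries labelled RNase H1 and 153.14 and 143.07 TPM in those labelled Flag.

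The ratio of activator to repressor TPM was 0.765 and 0.809 in the libraries labelled RNase H1 and 0.620 and 0.615 in those labelled Flag. Activators made up 36.8% ± 0.912 of all E2F TPM in the libraries labelled RNase H1 and 33.0% ± 0.0245 in those labelled Flag (SD, n = 2 each). For repressors the shares were 46.8% ± 0.674 in the libraries labelled RNase H1 and 53.4% ± 0.364 in those labelled Flag, while atypical members made up 16.5% ± 0.238 in the libraries labelled RNase H1 and 13.7% ± 0.388 in those labelled Flag. Repressors were the most abundant E2F class in all 4 libraries. The TPM of E2F1 to E2F6 over that of the DP partners was 1.36 and 1.38 in the libraries labelled RNase H1 and 1.26 and 1.39 in those labelled Flag, so this ratio overlapped. These sums and ratios are descriptions without a test, because the members were chosen with results of these data known.

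**Figure D3:**
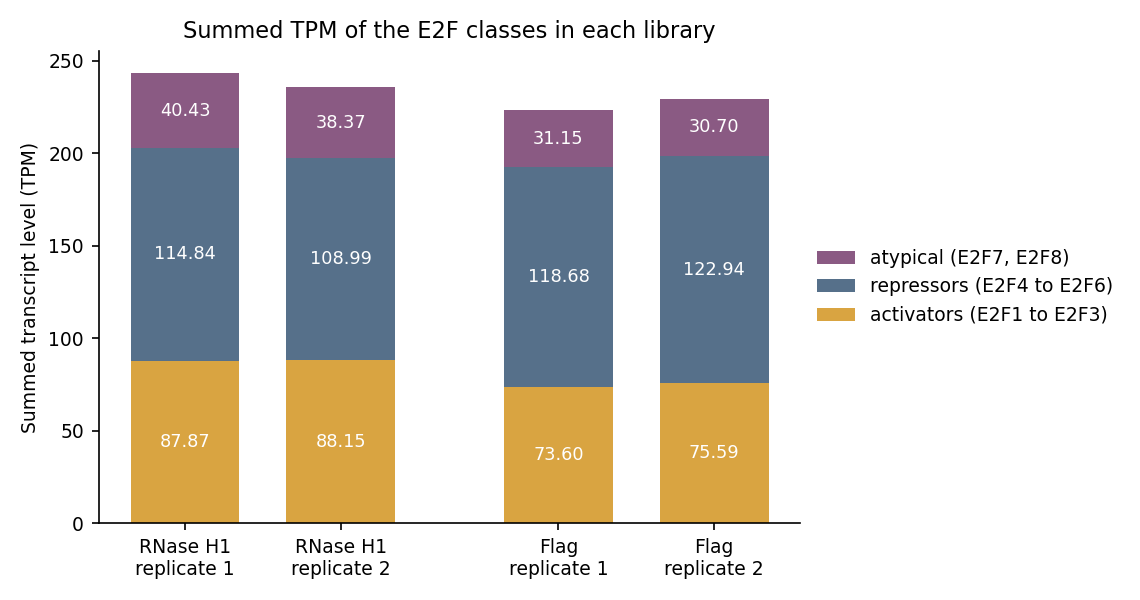
Summed TPM (axis from 0) of activators, repressors and atypical E2F genes in each library, stacked from bottom to top, with the RNase H1 libraries on the left. Activator sums are 87.87 and 88.15 in the libraries labelled RNase H1, against 73.60 and 75.59 in those labelled Flag, and repressors are the largest class in every library.

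The genes with a pattern most like that of E2F2, the member with the smallest p, were ZSWIM3, ZNF627, HSPA5, ZNF649 and CDIP1. Likeness was the Euclidean distance between centred log2(TPM + 1) profiles over the 4 libraries, among 11244 genes averaging 5 TPM or more. ZSWIM3 was nearest at a distance of 0.0156, with 6.98 and 7.04 TPM in the libraries labelled RNase H1 and 4.58 and 5 TPM in those labelled Flag. The other distances lay between 0.0261 and 0.0299. With 4 libraries in 2 groups many genes share such a profile, and the list is a description.

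Of the 3 pocket proteins, which bind E2F factors, 1 was called higher, 1 lower and 1 was not called. Over all tested genes 6.3% were called higher and 5.54% lower, and a list of 3 genes is small. RB1, the partner of the activators, rose to 47.92 and 44.24 TPM in the libraries labelled RNase H1, against 36.74 and 36.73 TPM in those labelled Flag (log2 fold change 0.32 ± 0.07, SE, limma adjusted p = 0.0370). RBL2, the p130 partner of E2F4 and E2F5, fell to 30.05 and 28.96 TPM in the libraries labelled RNase H1, against 36.98 and 38.07 TPM in those labelled Flag (-0.34 ± 0.06, SE, adjusted p = 0.0308). RBL1 (p107) had 28.78 and 26.31 TPM in the libraries labelled RNase H1 and 23.15 and 23.79 TPM in those labelled Flag and did not pass (0.22 ± 0.08, SE, adjusted p = 0.112). E2F4 and RBL2, both of which act in the DREAM complex of resting cells, thus both fell. Among other DREAM parts E2F5 (-0.23) and LIN37 (-0.17) were lower. RBL1 (0.22), LIN9 (0.19), LIN52 (0.18), LIN54 (0.28) and RBBP4 (0.09) were higher, and none of these parts was called. After GC correction 0 pocket proteins were called higher and 1 was called lower.

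MuvB is the core that joins E2F4, E2F5 and RBL1 or RBL2 to form DREAM and later binds MYBL2 and FOXM1. Of 8 tested genes of MuvB and its partners 1 was higher, 0 lower and 7 not called, and the median of their log2 fold changes was 0.19. That share of calls is near the 11.8% over all tested genes. DYRK1A, the kinase that promotes DREAM assembly, rose to 42.32 and 43.19 TPM in the libraries labelled RNase H1, against 33.84 and 32.45 TPM in those labelled Flag (0.36 ± 0.06, SE, limma adjusted p = 0.0252). FOXM1 (0.25 ± 0.06), LIN54 (0.28 ± 0.07) and MYBL2 (0.19 ± 0.06) did not pass, with adjusted p between 0.0537 and 0.0739. After GC correction 3 members of this list were called higher.

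Among 9 cyclins and kinases that phosphorylate pocket proteins 1 was higher, 0 lower and 8 not called, and the median of their log2 fold changes was 0.07. Here too the share called was near the 11.8% over all tested genes. CCNE2, a cyclin E gene and itself an E2F target, rose to 39.33 and 38.84 TPM in the libraries labelled RNase H1, against 23.37 and 20.22 TPM in those labelled Flag (0.82 ± 0.09, SE, limma adjusted p = 0.00990). The paralog CCNE1 did not follow, at 24.0 and 25.0 TPM in the libraries labelled RNase H1 and 23.85 and 24.97 TPM in those labelled Flag (0.01 ± 0.07, adjusted p = 0.969). CDK2 (0.18 ± 0.05), CDK6 (-0.28 ± 0.09) and CCND1 (0.16 ± 0.07) did not pass.

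Inhibitors of these kinases had 3 called higher, 1 lower and 3 not called of 7, with a median log2 fold change of 0.25. Over all tested genes 6.3% were called higher and 5.54% lower. CDKN1A (p21) rose by 0.58 ± 0.06, CDKN2D (p19) by 0.40 ± 0.08 and CDKN1B (p27) by 0.28 ± 0.07, all on the log2 scale (SE). Their limma adjusted p was 0.00990, 0.0376 and 0.0473 in that order. After quantile normalization, median-of-ratios scaling or GC and length correction 2 inhibitors were called higher. With a minimum mean of 5 TPM 4 were called higher. CDKN2A, the gene of p16 and ARF, fell to 69.8 and 74.54 TPM in the libraries labelled RNase H1, against 83.68 and 87.89 TPM in those labelled Flag (-0.25 ± 0.06, SE, limma adjusted p = 0.0487), a call lost after GC correction and after GC and length correction. Of 6 genes of E2F protein turnover 1 was called higher, the ubiquitin ligase subunit SKP1 (0.19 ± 0.04, adjusted p = 0.0336), 0 were lower and 5 were not called. This list is small too, and 11.8% of all tested genes were called. SKP2 (-0.24 ± 0.07, adjusted p = 0.0808) and CDC20 (0.12 ± 0.04, adjusted p = 0.109) did not pass. CCNF, the cyclin whose ubiquitin ligase degrades activator and atypical E2F proteins, had a log2 fold change of -0.09 ± 0.07 (adjusted p = 0.447).

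Of 10 genes of PRC1.6, the Polycomb complex that E2F6 joins, 1 was higher, 0 lower and 9 not called, with a median of 0.09, against 11.8% of all tested genes called. In 6 of the 15 alternative settings, both GC corrections among them, 1 gene of this list was called lower. RYBP, a Polycomb subunit, rose to 58.31 and 55.41 TPM in the libraries labelled RNase H1, against 43.64 and 44.99 TPM in those labelled Flag (0.35 ± 0.06, SE, limma adjusted p = 0.0242). CBX3 (-0.15 ± 0.04), PCGF6 (0.17 ± 0.06) and YAF2 (0.33 ± 0.13) did not pass. Of 4 germ line genes that E2F6 silences in mouse cells 2 were tested and 0 were called. STAG3, a meiotic cohesin subunit, had 5.64 and 4.96 TPM in the libraries labelled RNase H1 and 3.50 and 4.88 TPM in those labelled Flag (0.29 ± 0.17, adjusted p = 0.303). SMC1B, another meiotic cohesin subunit, had a log2 fold change of 0.17 ± 0.20, TUBA3C was listed at 0 in all 4 libraries and SLC25A31 did not exceed 0.32 TPM.

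**Figure D4:**
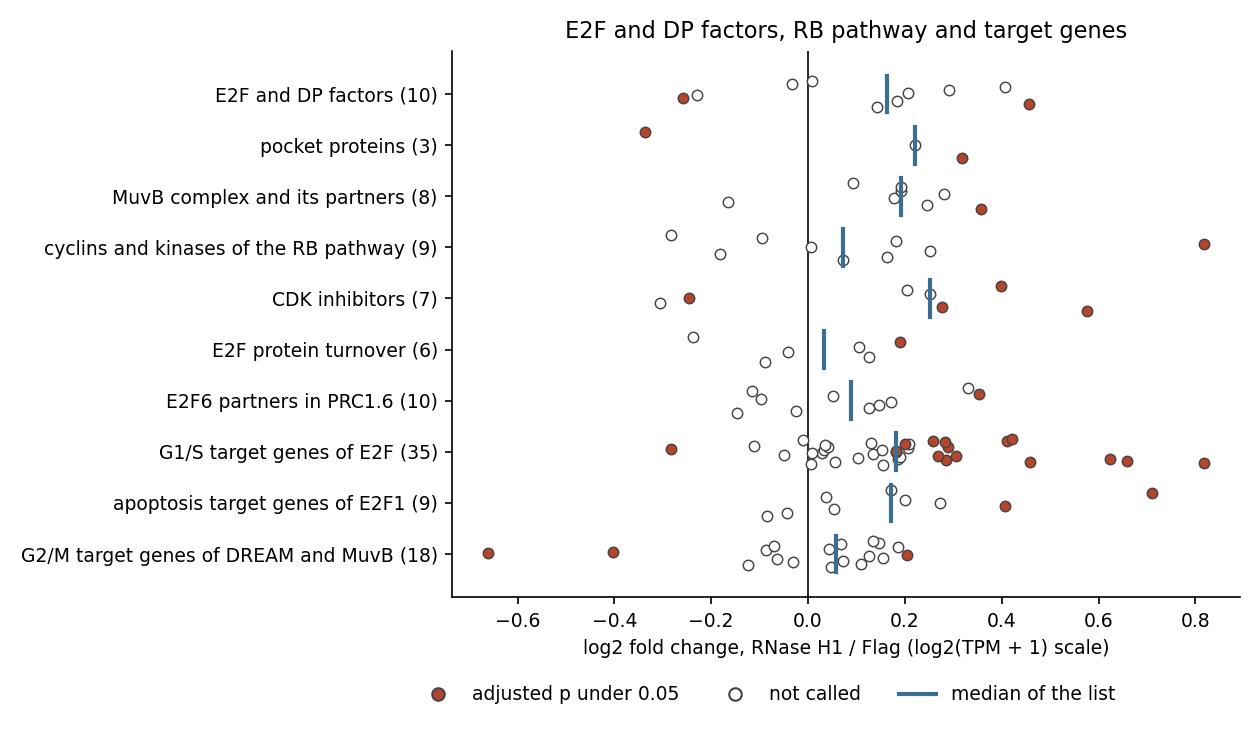
Log2 fold change of each tested gene (RNase H1 over Flag, log2(TPM + 1) scale) in the E2F and DP set, in lists of the RB pathway and in lists of target genes, with the number tested in parentheses. Filled points passed an adjusted p of 0.05 and bars mark the medians, 0.18 for G1/S target genes and 0.06 for G2/M target genes.

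Target genes of E2F at the G1/S transition rose in 14 cases of 35, fell in 1 and were not called in 20. Their median log2 fold change was 0.18, against 0.0035 over all tested genes, of which 6.3% were called higher. CDC6, which loads the replicative helicase, rose to 133.81 and 130.46 TPM in the libraries labelled RNase H1, against 85.5 and 81.14 TPM in those labelled Flag (0.66 ± 0.05, SE, limma adjusted p = 0.00596). CDC25A, the phosphatase that activates CDK2, rose by 0.46 ± 0.05 and USP1, a deubiquitinase of DNA repair, by 0.42 ± 0.05, and CCNE2 of the cyclin list counts here too. NASP, a histone chaperone, was the member that fell, to 310.9 and 314.33 TPM in the libraries labelled RNase H1, against 388.33 and 373.01 TPM in those labelled Flag (-0.28 ± 0.04, SE, adjusted p = 0.0165). Among helicase subunits of the MCM ring MCM7 was called higher (0.18 ± 0.04, limma adjusted p = 0.0332) and MCM2 was not called (-0.05 ± 0.05, adjusted p = 0.511). MCM6 was not called either (adjusted p = 0.0769), although its log2 fold change was also 0.18. MCM3 (0.13), MCM4 (0.03) and MCM5 (0.01) did not pass. A difference in call is thus not a measured difference between subunits. CCNE1 and MCM2 to MCM7 were named after their values were seen. Among promoter windows of this list 15 of 46 (32.6%) held at least 1 of the E2F-type stretches, and their median GC content was 68.4%, against 58.0% over all windows. Shares in lists of pathway genes varied. They were 29.4% of 17 windows for MuvB and its partners, 25.0% of 16 for PRC1.6 and 25.0% of 4 for pocket proteins. Lower shares were found for E2F protein turnover (18.2% of 11), CDK inhibitors (11.1% of 9) and the cyclins and kinases (0.0% of 8).

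Apoptosis genes known as E2F1 targets had 2 called higher, 0 lower and 7 not called of 9, with a median of 0.17. The list is small, and 11.8% of all tested genes were called, 6.3% of them higher. PMAIP1 (NOXA) rose to 246.02 and 224.86 TPM in the libraries labelled RNase H1, against 144.85 and 141.99 TPM in those labelled Flag (0.71 ± 0.06, SE, limma adjusted p = 0.00596). CASP8 (0.20 ± 0.12, adjusted p = 0.292) did not pass.

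G2/M genes bound by DREAM and MuvB had 1 called higher, 2 lower and 15 not called of 18, with a median of 0.06. Over all tested genes 11.8% were called, 6.3% higher and 5.54% lower. The kinetochore genes CENPF (-0.40 ± 0.05, SE) and CENPE (-0.66 ± 0.12) fell. CDK1, the mitotic kinase, rose to 264.95 and 249.61 TPM in the libraries labelled RNase H1, against 221.8 and 224.58 TPM in those labelled Flag (0.20 ± 0.05, SE, limma adjusted p = 0.0421), a call lost after GC and length correction. NEK2, a centrosome kinase, had a log2 fold change of 0.19 ± 0.05 (adjusted p = 0.0557). Of 16 promoter windows in this list 1 (6.25%) held an E2F-type stretch, near the share over all windows. The difference between the G1/S and G2/M lists was not tested. In these lists 0 genes were called when any 1 of the 4 libraries was left out.

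**Figure D5:**
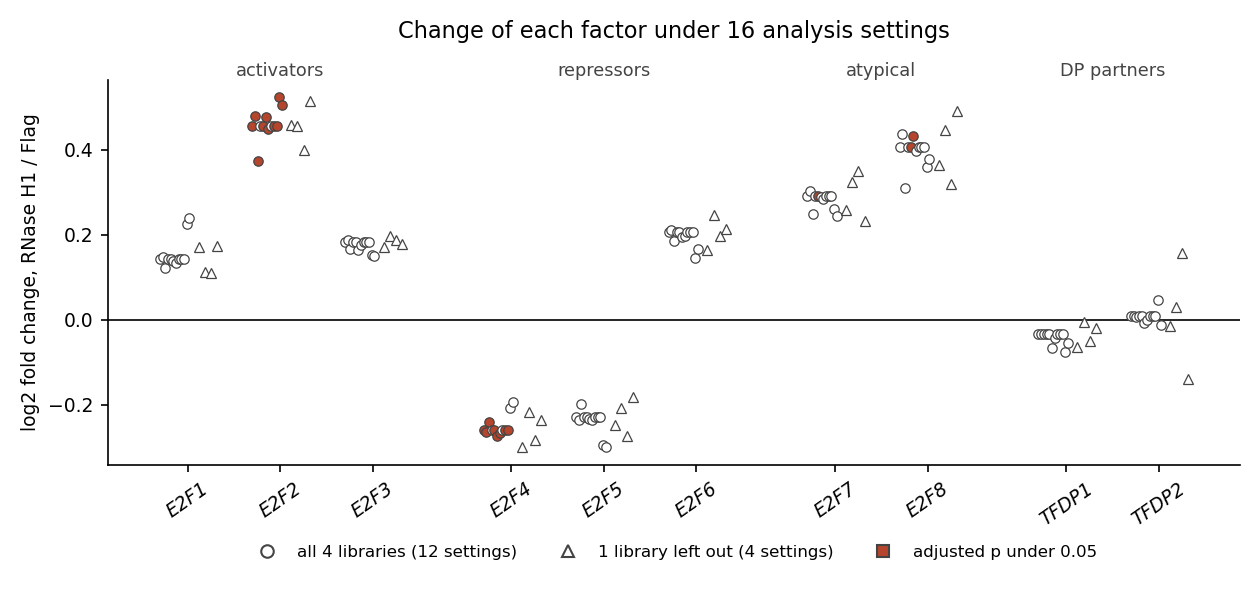
Log2 fold change (RNase H1 over Flag) of each E2F and DP factor under the main setting and 15 alternatives, circles with all 4 libraries and triangles with 1 library left out, filled where the adjusted p was under 0.05. E2F1 to E2F8 keep their direction throughout, and TFDP2 lies on both sides of 0. Leaving out 1 library could not reverse E2F1 to E2F8, because their groups do not overlap.

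Across the 15 alternative settings the direction of E2F1 to E2F8 and of TFDP1 was the same as in the values above. For E2F1 to E2F8 much of this was fixed in advance. Their groups did not overlap, so leaving out 1 library could not reverse the sign. Changing the filter, the intensity trend or the block leaves the fold change itself unchanged. E2F2 was called in 9 of 15, E2F4 in 7, E2F8 in 2 and E2F7 in 1, and the other 6 members in 0. The log2 fold change of E2F2 ranged from 0.37 to 0.52 and that of E2F4 from -0.30 to -0.19. TFDP2 changed sign in 5 settings, with values from -0.14 without Flag replicate 2 to 0.16 without Flag replicate 1, the libraries that held its uneven values.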

How the data were processed

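Libraries of HEK293T cells (2 labelled RNase H1, 2 labelled Flag) were made from total RNA with a VAHTS mRNA-seq kit, per the labels. The authors deposited 1 table of TPM. STAR and the hg38 build were used, per the submitters' processing notes. The quantification program, the annotation release and the strand setting were not given in the sources used here. Being shares, TPM values say nothing of total RNA per cell.

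Genes averaging 1 TPM or more were tested as log2(TPM + 1) with limma 3.58.1 in R 4.3.3 (group term, moderated variances with an intensity trend, two-sided), with Benjamini-Hochberg adjustment over all 15651 genes and a threshold of 0.05. The added 1 makes fold changes of low genes smaller. The procedure was tested on simulated data. Named genes were the 10 members, RNASEH1, up to 4 genes per list with the smallest p, every call of lists with 5 or fewer, and the 5 nearest profiles to the member with the smallest p. A few listed genes are not reported here. The members and lists were chosen with earlier results of these data known. Gene positions, length and GC content came from GENCODE release 29 (GRCh38), available for 97.9% of tested genes. GC and length corrections regressed the deviation of every library from the gene means on splines (4 degrees of freedom each). Alternatives are given in the closing section. Figures were drawn with matplotlib 3.10.9.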

Additional observations from a re-analysis of the deposited data

How the results depend on the processing

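The number of genes called was 1853 and moved by over 1.5 times with no filter on low values (0 genes, with 5655 at an unadjusted p under 0.05), with no intensity trend (1 gene, with 4337) and when a library was left out (0 to 15 genes, with 3367 to 4035). Fits that leave out a library assume that the lone library of a group varies like the other group. The number of members called higher, 1, was 0 with no filter on low values and with no intensity trend, 3 with a minimum mean of 5 TPM, 2 after quantile normalization and 0 with any 1 library left out. The number called lower, 1, was 0 with no filter, with no intensity trend, after GC correction, after GC and length correction and with a library left out. The minimum mean of 5 TPM raised the share called over all genes, to 2397 of 11245 from 1853 of 15651. With no filter and with no trend 5 members were higher and 2 lower at an unadjusted p under 0.05. TFDP2 changed sign after quantile normalization (-0.0087), median-of-ratios scaling (-0.00054) and GC correction (-0.013), and lay between -0.14 and 0.16 with a library left out. The class sums moved by less than their replicate spread under median-of-ratios scaling and quantile normalization. The GC correction alone was chosen after seeing the data.

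With the replicate number as a block 2442 genes were called and the members' calls stayed at 1 higher and 1 lower. The labels do not say whether same-numbered libraries were prepared together, and their deviations correlated at 0.031 across genes. Of the counts of calls in the lists under the alternatives 204 stayed within 1.5 times and 96 did not. TPM gives no depth, so counting error could not be computed.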
